A study of Mus musculus with 14 samples.

Results

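Interleukin-10, both chains of its receptor and 5 genes of its production and signalling were followed across the aorta and the liver of 2 mouse genotypes. The genes were Il10, Il10ra, Il10rb, Maf, Prdm1, Stat3, Socs3 and Bcl3. They were chosen by name, as the features of both count tables whose symbol, without any suffix, was one of these, and all 8 were found among 24732 features. The 14 libraries came from 3 BT3xHuBL aortas, 3 HuBL aortas, 4 BT3xHuBL livers and 4 HuBL livers. All groups were on an ordinary laboratory diet, and the labels give 52 weeks as the time point. The labels leave the strain names unexplained. From earlier work in the field, HuBL mice express human apolipoprotein B, and BT3 is a transgenic T cell receptor directed at that protein, so that both genotypes share the HuBL background and only BT3xHuBL adds the receptor. Neither the promoter of the receptor transgene nor the number of animals behind a library is given in the labels. The p-values therefore describe variation between the libraries at hand, part or all of which may be technical. The series title links atheroprotective immunity and interleukin-10 to plaque stability.

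Interleukin-10 is a cytokine that restrains inflammation, made by macrophages, B cells and several kinds of T cell. It binds a receptor of a ligand-binding chain, Il10ra, and a chain shared with other cytokines of the family, Il10rb, and the receptor activates the transcription factor STAT3. STAT3 in turn drives Socs3, a feedback inhibitor of cytokine receptors, and a programme that holds back inflammatory genes in macrophages. Maf (c-Maf) and Prdm1 (Blimp-1) are transcription factors that promote Il10 transcription in T cells, and Bcl3 is a nuclear member of the IkB family that modulates NF-kB.

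The data were counts near the 3′ ends of transcripts, with library totals of 41933263 to 65539765 for aortas and of 13228123 to 17992459 for livers. Of the defining markers checked, smooth muscle and macrophage genes were present in every aorta group and hepatocyte genes in every liver group. The summed smooth muscle level was 12080 to 16460 CPM (counts relative to the library's total, scaled within a tissue) in BT3xHuBL aortas and 13300 to 15560 CPM in HuBL aortas. The library labelled BT3xHuBL aorta 3 stood apart in its T cell receptor counts. The Vb14 beta segment had 32, 38 and 2 counts in BT3xHuBL aortas 1 to 3 and 10, 0 and 1 counts in HuBL aortas 1 to 3, so the third BT3xHuBL aorta lay within the HuBL range. In the liver the same segment had 2, 3, 0 and 1 counts in BT3xHuBL libraries and 0 in each of the 4 HuBL libraries. Aorta results are therefore also given without that library.

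All 8 genes are protein-coding; positions are those of GENCODE M21 on GRCm38. The cytokine, its binding chain and its feedback inhibitor have in common an AU-rich heptamer in the 3′ untranslated region, TATTTAT, a type of element that proteins such as tristetraprolin (Zfp36) bind to speed mRNA decay. The heptamer was searched on the strand of 1 transcript per gene, with overlaps allowed. It occurs 4 times in Il10, 3 times in Il10ra and 2 times in Socs3, and in none of the transcripts searched for the other 5 genes. Thus 3 of 8 members hold it, against 26.2% of 20602 genes, a difference that was not tested. These stretches are shown because these 3 transcripts hold a match and the other 5 searched do not. Where along the transcript the reads lie was not measured. Capitals mark the heptamers in 1 window of 30 bases per gene, 5′ to 3′ on the transcript.
Il10 (chr1:131019845-131024974, plus strand): ctctctccgaaaTATTTATtacctctgata
Il10ra (chr9:45253837-45269149, minus strand): ttTATTTATTTATttgctcactTATTTATt
Socs3 (chr11:117966079-117970047, minus strand): ttgcacataTATTTATATTTATactcagaa
A match is a description of the letters and says nothing of use in these tissues.

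Of the 8 genes, Il10 had the largest difference between genotypes in the aorta. In the aorta it had 43, 69 and 35 counts in BT3xHuBL libraries and 8, 11 and 15 counts in HuBL libraries. Scaled, the 3 BT3xHuBL aortas had 0.751, 1.03 and 0.569 CPM, and the 3 HuBL aortas had 0.124, 0.269 and 0.237 CPM. The groups did not overlap, and the lowest BT3xHuBL library, at 0.569 CPM, lay well above the highest HuBL library, at 0.269 CPM. At this depth the exact Poisson 95% interval, which covers counting error only, ran from 0.396 to 0.791 CPM for the lowest BT3xHuBL library and from 0.134 to 0.481 CPM for the highest HuBL library, so the intervals of these 2 libraries overlapped. The group means were 0.784 ± 0.234 CPM in BT3xHuBL and 0.210 ± 0.0761 CPM in HuBL (SD, n = 3 each).

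The log2 fold change of Il10 in the aorta, BT3xHuBL over HuBL, was 1.91 (SE 0.55, 95% interval 0.68 to 3.13). Its unadjusted p of 0.00589 ranked 97 of 15400 tested features in edgeR's quasi-likelihood test, and its Benjamini-Hochberg adjusted p was 0.899, so the difference did not pass the threshold of 0.05. Over the alternatives the adjusted p of Il10 ranged from 0.172, in DESeq2, to 1.00, and the log2 fold change was positive in each. Leaving out single libraries gave log2 fold changes of 1.63 to 2.11. Without the library labelled BT3xHuBL aorta 3 it was 2.09, with an edgeR adjusted p of 0.377.

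In the liver Il10 was near the limit of detection. It had 3, 3, 5 and 1 counts in BT3xHuBL livers and 3, 4, 8 and 5 counts in HuBL livers, and the groups overlapped. The means were 0.191 ± 0.108 CPM in BT3xHuBL and 0.345 ± 0.179 CPM in HuBL (SD, n = 4 each). Il10 did not pass the low-count filter in the liver. In an edgeR fit without the filter its log2 fold change was -0.82 (SE 0.62, 95% interval -2.14 to 0.50, adjusted p = 0.693), an interval that holds differences of either sign.

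The genotype difference in the aorta minus that in the liver was tested as an interaction over all 14 libraries. For Il10 it was 2.75 log2 units (SE 0.74, 95% interval 1.18 to 4.33), with an unadjusted p of 0.00203 that ranked 51 of 14912 features and an edgeR adjusted p of 0.46. None of the 8 genes passed, against 0% of all features called in that test and 8.16% with an unadjusted p under 0.05. Il10 had the smallest p of the members, followed by Prdm1 at -0.72 log2 units (SE 0.35, unadjusted p = 0.06 in the same edgeR test, adjusted p = 0.632). Il10 and Prdm1 did not pass the low-count filter in the liver alone and entered this fit because its filter spanned all 4 groups. Il10 levels were highest in BT3xHuBL aortas, which helped it pass, so its rank in this test is no separate support.

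**Figure D1:**
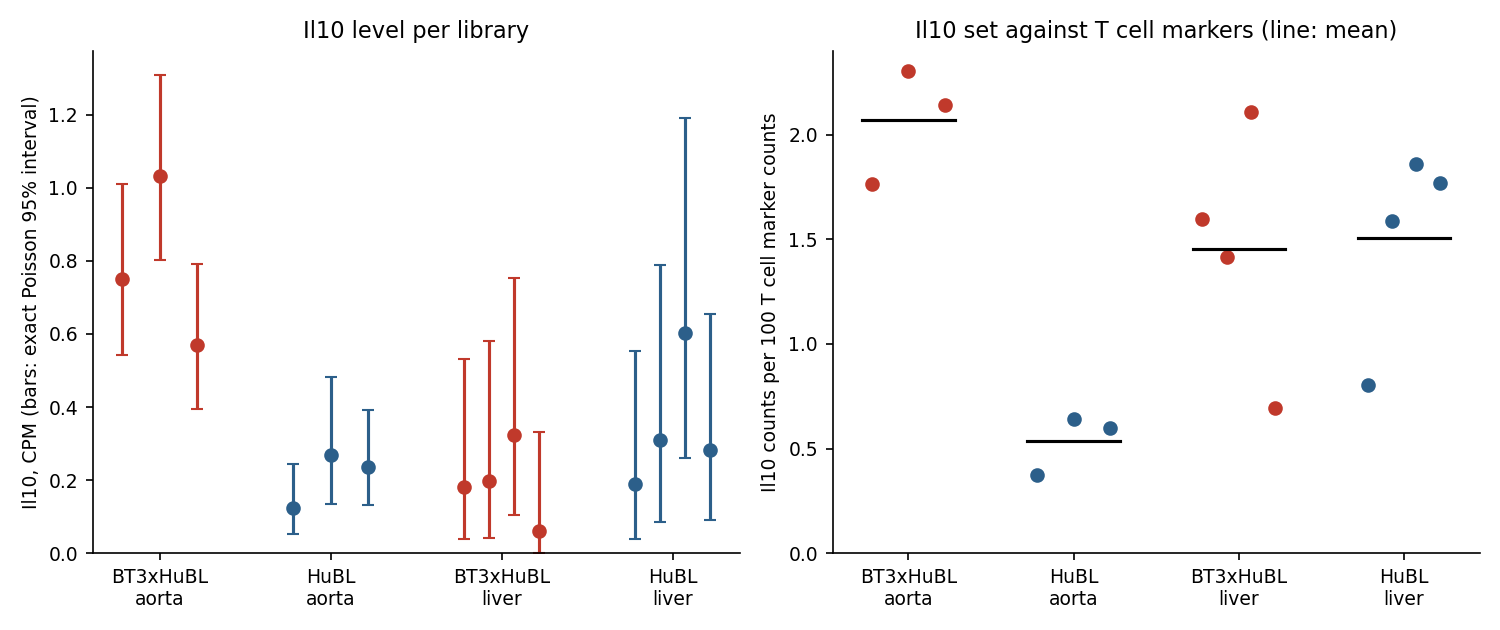
Il10 in each library, as CPM scaled within a tissue with exact Poisson 95% intervals (left panel), and as Il10 counts per 100 counts of T cell markers with group means as lines (right panel). The 3 BT3xHuBL aortas lie above all 3 HuBL aortas on both scales, and the liver groups overlap on both.

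Because Il10 has several cellular sources and bulk RNA cannot tell fewer cells of a type from less RNA per cell, Il10 was set against summed markers of those sources. Per 100 counts of 12 T cell markers, Il10 had 1.76, 2.30 and 2.14 counts in BT3xHuBL aortas and 0.371, 0.642 and 0.597 counts in HuBL aortas. The groups did not overlap, with means of 2.07 ± 0.277 in BT3xHuBL and 0.537 ± 0.145 in HuBL (SD, n = 3 each), a ratio of 3.85. An exact two-sided permutation test gave p = 0.1, the smallest that 3 libraries against 3 allow. With the receptor constant genes Trac, Trbc1 and Trbc2 left out of the markers, the means were 2.40 in BT3xHuBL and 0.606 in HuBL. Without the library labelled BT3xHuBL aorta 3 the difference of the means was 1.497, against 1.53 with it.

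The T cell marker sum itself overlapped between genotypes in the aorta, at 26.6 to 44.8 CPM in BT3xHuBL and 33.4 to 41.9 CPM in HuBL. The lowest BT3xHuBL value was that of the library labelled BT3xHuBL aorta 3. Without that library the BT3xHuBL aortas, at 42.6 and 44.8 CPM, lay above all HuBL aortas by a small margin. Macrophage markers also overlapped, at 3390 to 3641 CPM in BT3xHuBL and 3157 to 3834 CPM in HuBL, and Il10 per 100 of their counts was 0.0221 in BT3xHuBL against 0.00613 in HuBL (exact permutation p = 0.1). B cell and plasma cell markers were lower in BT3xHuBL aortas without overlap: 41.8 to 49.3 CPM in BT3xHuBL against 52.2 to 64.7 CPM in HuBL for B cells, and 383 to 554 CPM in BT3xHuBL against 720 to 1139 CPM in HuBL for plasma cells. These sums are weighted towards the most abundant markers. In each list all 8 tested markers had log2 fold changes below 0, and edgeR called none. The medians were -0.79 for B cells and -1.45 for plasma cells, against -0.0044 over all tested features. Per 100 counts of both lists Il10 was 0.154 in BT3xHuBL and 0.0202 in HuBL (exact permutation p = 0.1). Neutrophil markers, of which Ly6g was not found, summed to 11.8 to 56.0 CPM in BT3xHuBL aortas and 6.89 to 25.3 CPM in HuBL aortas. Here too the library labelled BT3xHuBL aorta 3 was the lowest of its group, and the others had 49.2 and 56.0 CPM. Hepatocyte markers summed to 33.5 to 57.7 CPM in BT3xHuBL aortas and 15.9 to 28.9 CPM in HuBL aortas, without overlap. Nearly all of this sum was Cyp2e1, with a mean of 48.98 of 49.14 CPM in BT3xHuBL and 21.87 of 22.23 CPM in HuBL. Cyp2e1 was the only 1 of the 6 hepatocyte markers tested in the aorta, so the sum describes that gene. The part of these cell types in the Il10 difference was not tested beyond the ratios given.

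In the liver Il10 per 100 T cell marker counts was 1.60, 1.42, 2.11 and 0.694 in BT3xHuBL and 0.804, 1.59, 1.86 and 1.77 in HuBL. The groups overlapped, with means of 1.45 ± 0.586 in BT3xHuBL and 1.505 ± 0.481 in HuBL (SD, n = 4 each; exact permutation p = 0.886, smallest possible 0.0286). T cell markers were lower in BT3xHuBL livers without overlap, at 8.57 to 15.3 CPM in BT3xHuBL and 15.9 to 32.4 CPM in HuBL. All 11 tested T cell markers had log2 fold changes below 0 in the liver, with a median of -0.96 against 0.01 over all tested features, and edgeR called none of them.

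Il10ra, the chain that binds the cytokine, was slightly lower in BT3xHuBL aortas. It had 82.5, 87.3 and 86.6 CPM in BT3xHuBL aortas and 90.3, 88.7 and 95.2 CPM in HuBL aortas. The groups did not overlap, but the log2 fold change was only -0.10 (SE 0.07, 95% interval -0.25 to 0.06) and edgeR's adjusted p was 1.00; without the library labelled BT3xHuBL aorta 3 it was -0.11. In the liver Il10ra had 10.6, 7.20, 6.45 and 5.59 CPM in BT3xHuBL and 11.8, 9.42, 9.11 and 10.9 CPM in HuBL. The first BT3xHuBL liver lay among the HuBL livers, and the other 3 lay below all of them.

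The log2 fold change of Il10ra in the liver was -0.47 (SE 0.19, 95% interval -0.90 to -0.04), with an unadjusted p of 0.0336 in edgeR's test, a level that 11.1% of all liver features reached, and an adjusted p of 0.418. Without BT3xHuBL liver 1 it was -0.69 and without BT3xHuBL liver 4 it was -0.35; neither passed the threshold in edgeR (adjusted p = 0.260 and 0.511). The summed T cell markers given above were lower in the same BT3xHuBL livers, whose macrophage marker sums overlapped, at 136 to 245 CPM in BT3xHuBL and 169 to 258 CPM in HuBL; their part in the Il10ra values was not tested. The feature name of Il10ra carries a suffix that may mark overlap with another gene, in which case shared reads could enter its counts; the labels do not give its meaning.

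Il10rb, the chain shared with receptors of other interleukin-10 family cytokines, showed no separation of genotypes. It had 133, 152 and 144 CPM in BT3xHuBL aortas and 151, 166 and 139 CPM in HuBL aortas. Its log2 fold change in the aorta was -0.09 (SE 0.09, 95% interval -0.28 to 0.11). In the liver it had 15.6, 14.7, 13.0 and 14.6 CPM in BT3xHuBL and 18.4, 14.8, 11.97 and 19.7 CPM in HuBL, and the HuBL livers spanned all of the BT3xHuBL values. The log2 fold change there was -0.17 (SE 0.15, 95% interval -0.50 to 0.17).

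Maf, which promotes Il10 transcription in T cells and is also expressed in tissue macrophages, was higher in BT3xHuBL aortas by a small margin. It had 54.3, 47.3 and 45.4 CPM in BT3xHuBL aortas and 42.4, 36.9 and 44.8 CPM in HuBL aortas. The groups did not overlap, although 45.4 CPM in the library labelled BT3xHuBL aorta 3 and 44.8 CPM in HuBL aorta 3 lay close together. The log2 fold change was 0.25 (SE 0.10, 95% interval 0.03 to 0.46) with an edgeR adjusted p of 1.00, and 0.30 without the library labelled BT3xHuBL aorta 3 (adjusted p = 0.546 in edgeR). In the liver Maf had 38.3, 28.3, 33.0 and 37.5 CPM in BT3xHuBL and 35.1, 35.3, 31.4 and 33.3 CPM in HuBL. These overlapped, and the log2 fold change was 0.02 (SE 0.11, 95% interval -0.21 to 0.25).

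Prdm1, which encodes Blimp-1 and is also a regulator of plasma cells, had 7.20, 6.85 and 6.48 CPM in BT3xHuBL aortas and 6.24, 7.80 and 8.25 CPM in HuBL aortas. The groups overlapped, and the log2 fold change was -0.12 (SE 0.16, 95% interval -0.47 to 0.24). In the liver it was counted thinly, with 14, 8, 13 and 9 counts in BT3xHuBL and 5, 5, 7 and 10 counts in HuBL. Most BT3xHuBL livers had more counts than most HuBL livers, and the groups overlapped. The means were 0.688 ± 0.180 CPM in BT3xHuBL livers and 0.448 ± 0.117 CPM in HuBL livers (SD, n = 4 each). Prdm1 did not pass the low-count filter in the liver, and an edgeR fit without the filter gave a log2 fold change of 0.61 (SE 0.42, 95% interval -0.27 to 1.49, adjusted p = 0.66).

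**Figure D2:**
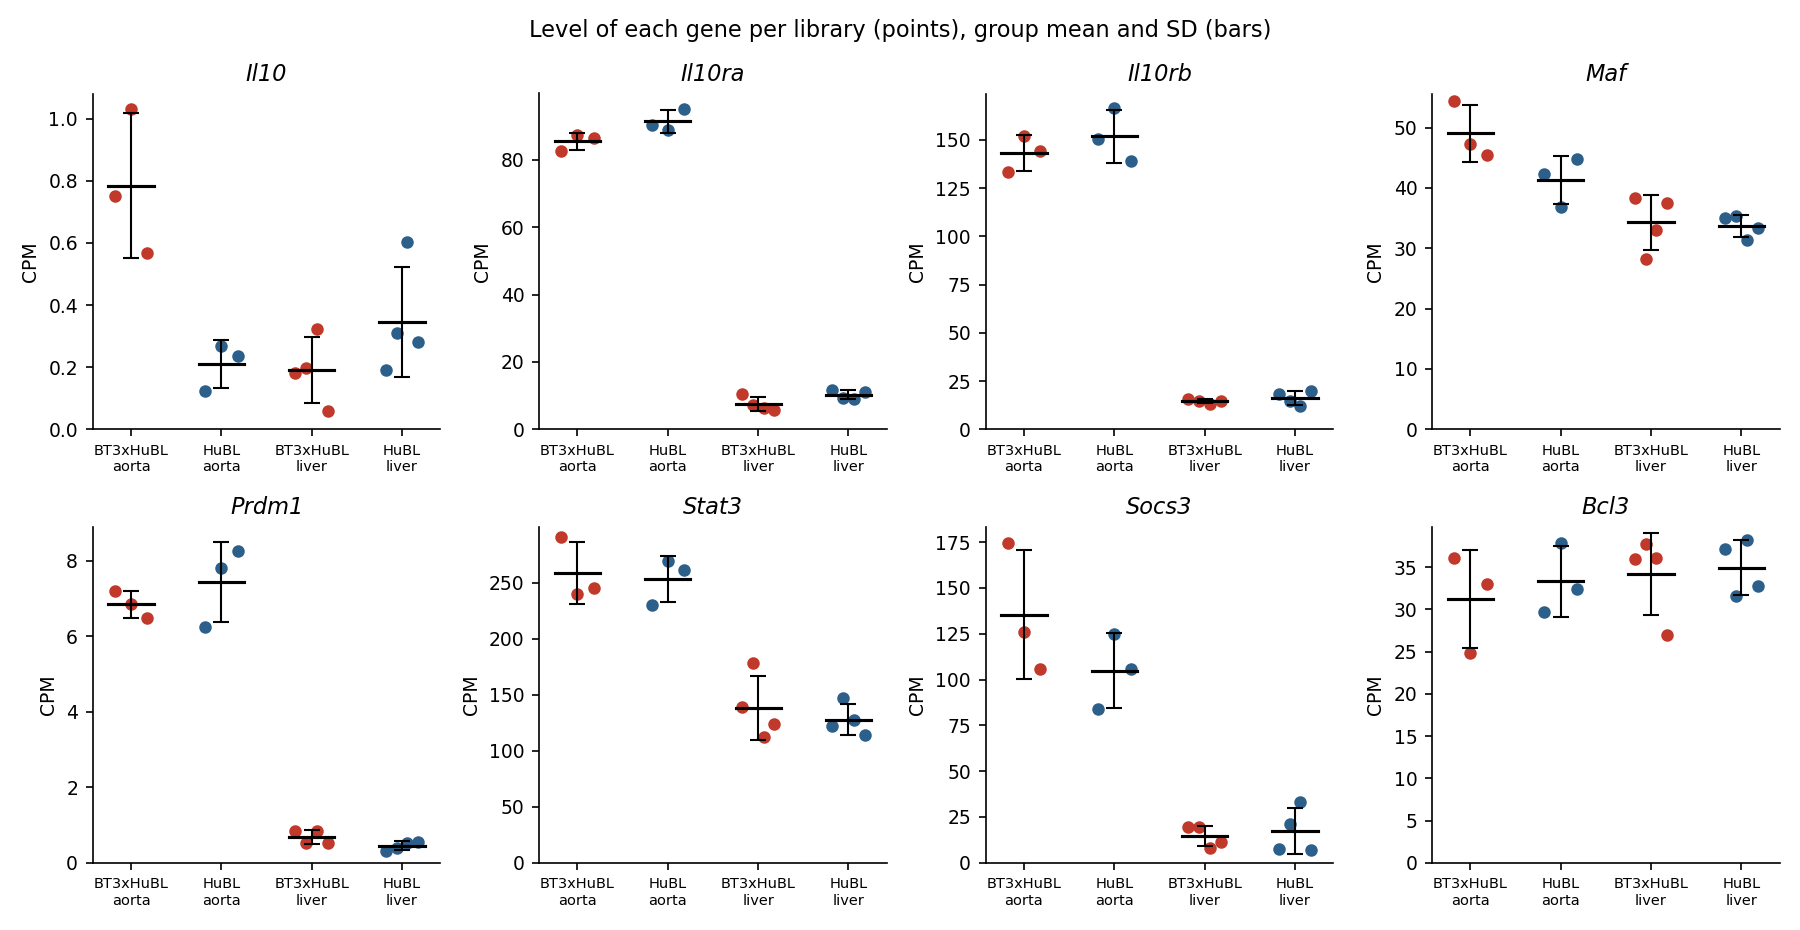
CPM of each of the 8 genes in every library (points), with group mean and SD (bars). CPM are scaled within a tissue; only Il10 and Maf (higher) and Il10ra (lower) separate the BT3xHuBL aortas from the HuBL aortas, and no gene separates the livers by genotype.

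Stat3, the transcription factor activated by the receptor, did not separate the genotypes. It had 291, 240 and 245 CPM in BT3xHuBL aortas and 230, 269 and 261 CPM in HuBL aortas. The highest and the lowest value belonged to different genotypes but the groups overlapped, with a log2 fold change of 0.03 (SE 0.10, 95% interval -0.19 to 0.25). In the liver Stat3 had 139, 178, 112 and 124 CPM in BT3xHuBL and 122, 147, 128 and 114 CPM in HuBL. The log2 fold change was 0.11 (SE 0.14, 95% interval -0.19 to 0.42). These values are transcript levels, and the activation of STAT3 by phosphorylation is not measured by them.

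Socs3, the feedback inhibitor whose transcription STAT3 drives, varied more between the libraries of a group than the receptor chains, Maf, Prdm1, Stat3 and Bcl3, in all 4 groups. It had 175, 126 and 106 CPM in BT3xHuBL aortas and 83.9, 125 and 106 CPM in HuBL aortas. BT3xHuBL aorta 1 lay above all others, and the other 2 BT3xHuBL libraries lay at the level of 2 HuBL libraries. The log2 fold change was 0.37 (SE 0.23, 95% interval -0.18 to 0.92). It was 0.52 without the library labelled BT3xHuBL aorta 3 (edgeR adjusted p = 0.637) and 0.15 without BT3xHuBL aorta 1. In the liver Socs3 had 19.3, 19.4, 8.19 and 11.4 CPM in BT3xHuBL and 7.45, 21.1, 33.1 and 6.81 CPM in HuBL. The HuBL livers spanned a 4.86-fold range that held all BT3xHuBL values, and the log2 fold change was -0.22 (SE 0.58, 95% interval -1.58 to 1.14).

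The promoter of Socs3 is shown because Socs3 is the textbook transcriptional target of STAT3 among these genes. The sequence is RefSeq's, from 250 bases before to 50 after the start that RefSeq gives the gene (GRCm38.p6, chr11:117969317-117969616, minus strand), with the STAT-type site in capitals. GENCODE M21 places the start of Socs3 further upstream, so this window lies inside the gene span given above.
Socs3 promoter: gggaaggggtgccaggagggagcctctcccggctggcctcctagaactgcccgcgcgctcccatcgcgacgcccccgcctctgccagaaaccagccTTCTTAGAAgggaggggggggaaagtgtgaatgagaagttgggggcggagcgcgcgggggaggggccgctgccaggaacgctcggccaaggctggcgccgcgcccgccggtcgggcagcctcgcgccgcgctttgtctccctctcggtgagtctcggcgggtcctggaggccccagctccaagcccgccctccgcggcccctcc
The motif searched was TTCNNNGAA, which reads alike on both strands and was counted with overlaps allowed, and 8.3% of 32851 promoters of this length hold it. Of the 4 members in the promoter table, Socs3 holds 1 site, and Bcl3, Prdm1 and Stat3 hold none. The Socs3 site lies at -154 counted from the RefSeq start, and downstream of the start by GENCODE M21. The Prdm1 window that was searched also lies inside the span that GENCODE M21 gives that gene. The kappaB motif, searched on both strands, is in 8.46% of the promoters; Bcl3 (chr7:19822706-19823005, minus strand) holds it as GGGAAGTCCC 2 bases after the start, and the other 3 hold none. Il10, Il10ra, Il10rb and Maf have no entry in the table.

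Bcl3, the nuclear IkB protein, had 36.1, 24.8 and 33.0 CPM in BT3xHuBL aortas and 29.7, 37.9 and 32.4 CPM in HuBL aortas. The groups overlapped, and the log2 fold change was -0.09 (SE 0.14, 95% interval -0.41 to 0.23). In the liver it had 35.9, 37.7, 36.1 and 27.0 CPM in BT3xHuBL and 37.2, 31.6, 38.2 and 32.8 CPM in HuBL. BT3xHuBL liver 4 was the lowest of all 8, and the log2 fold change was -0.03 (SE 0.12, 95% interval -0.29 to 0.22).

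Over the members as a group, 8 of 8 were tested in the aorta, with 4 log2 fold changes above 0 and 4 below, and edgeR called 0 of 8, against 0.026% of all 15400 features. DESeq2 also called 0 of 8, against 0.451%. Their median was -0.03, against -0.0044 over all features. Groups did not overlap for 3 of the 8, against 9.27% of all features. Il10 and Maf were the 2 higher ones, against 4.38% of all features, and Il10ra the lower one, against 4.9%. In the liver 6 of 8 were tested, 2 above 0 and 4 below, and edgeR called 0, against 0% of 12453 features; DESeq2 called 0 of the same 6, against 1.02%. Their median was -0.10, against 0.01 over all features, and no member separated the genotypes, against 6.57% of all features. Among the tested members, unadjusted p under 0.05 was reached by Il10 and Maf in the aorta, against 4.08% of all features, and by Il10ra in the liver.

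**Figure D3:**
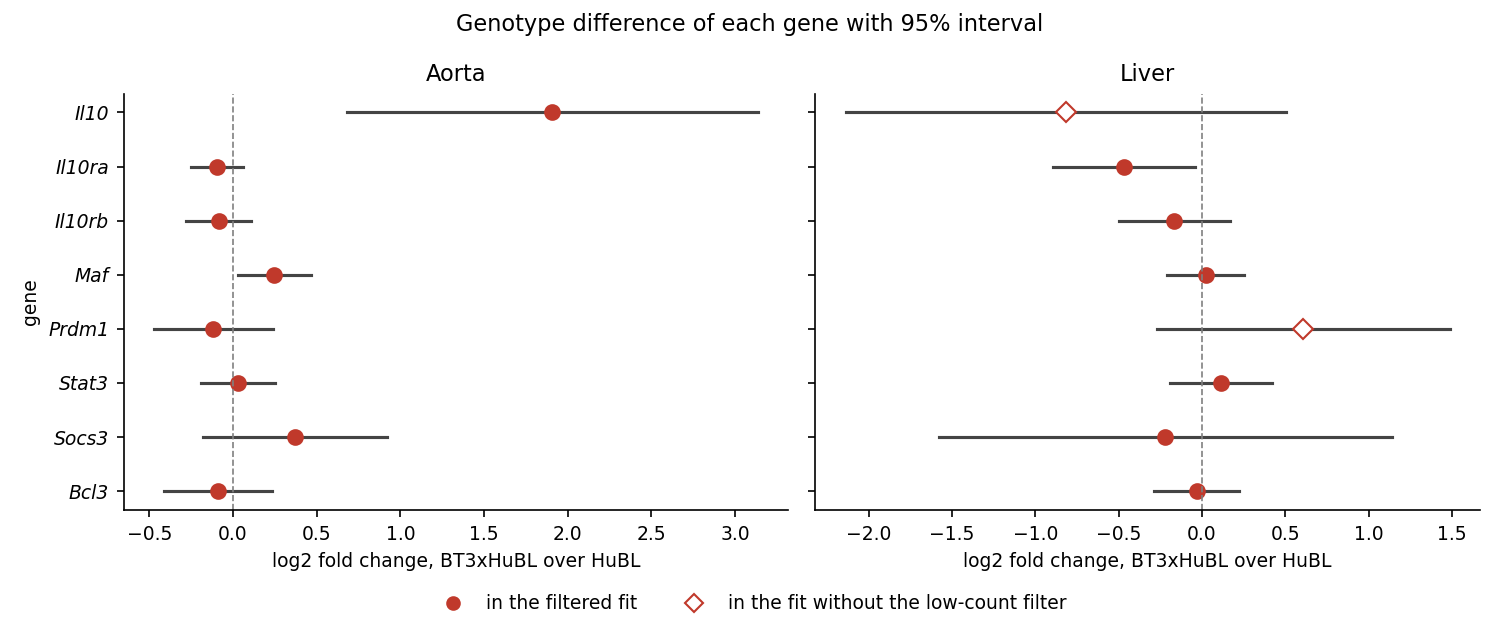
Log2 fold change of each gene, BT3xHuBL over HuBL, with its 95% interval in the aorta (left) and the liver (right). Filled circles are edgeR fits after the low-count filter and open diamonds the fit without it, used for Il10 and Prdm1 in the liver; the intervals of Il10 and Maf in the aorta and of Il10ra in the liver leave out 0, and none passes after adjustment.

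Between tissues the receptor chains, Prdm1 and Socs3 were called higher in the aorta in both genotypes, in a joint edgeR fit of all 14 libraries. This background is wide: 83.1% of 14912 features were called in BT3xHuBL and 83% in HuBL, so the members' 6 of 8 called in BT3xHuBL and 7 of 8 in HuBL were near the share over all features. Members called higher in the aorta were 5 of 8 in BT3xHuBL, against 43.3% of all features, and 4 of 8 in HuBL, against 44%; those called lower were 1 of 8 in BT3xHuBL, against 39.8%, and 3 of 8 in HuBL, against 39%. Il10ra was higher in the aorta by 2.76 log2 units (SE 0.15) in BT3xHuBL and 2.37 (SE 0.15) in HuBL, and Il10rb by 2.54 (SE 0.13) in BT3xHuBL and 2.45 (SE 0.13) in HuBL. Prdm1 was higher in the aorta by 2.55 (SE 0.23) in BT3xHuBL and 3.27 (SE 0.25) in HuBL, and Socs3 by 2.46 (SE 0.48) in BT3xHuBL and 1.87 (SE 0.48) in HuBL. Bcl3 was lower in the aorta, at -0.88 (SE 0.14) in BT3xHuBL and -0.84 (SE 0.14) in HuBL. Stat3 was not called, at 0.15 (SE 0.14) in BT3xHuBL and 0.22 (SE 0.14) in HuBL.

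Il10 was the member whose tissue difference had opposite signs in the genotypes. In BT3xHuBL it was higher in the aorta than in the liver by 1.29 log2 units (SE 0.52, edgeR adjusted p = 0.0303), and in HuBL it was lower in the aorta at -1.46 (SE 0.53, edgeR adjusted p = 0.0183). Both calls are fragile, and both come from the joint fit that Il10 entered as described above. The call in BT3xHuBL was lost without BT3xHuBL aorta 2 (1.04, edgeR adjusted p = 0.107) or any of BT3xHuBL livers 1, 2 and 4 (1.32, 1.31 and 0.99), and the call in HuBL without HuBL aorta 1 (-1.18) or HuBL liver 3 (-1.08). The difference between the 2 genotypes is the interaction given above, which did not pass. By CPM scaled within each tissue the order of Il10 levels was BT3xHuBL aorta, HuBL liver, HuBL aorta and BT3xHuBL liver, and the ranges of each pair of neighbours overlapped.

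Aorta and liver differ in depth and come as separate sets of libraries, so tissue, library set and depth cannot be told apart. Scaling by library totals in place of TMM moved the differences towards the aorta: the median over all features was 0.82 in BT3xHuBL and 0.88 in HuBL with library totals, against 0.07 in BT3xHuBL and 0.10 in HuBL with TMM. Under that scaling Maf turned to 0.51 in BT3xHuBL and 0.30 in HuBL, against -0.24 in BT3xHuBL and -0.48 in HuBL with TMM. Stat3 came out higher in the aorta, at 0.89 in BT3xHuBL and 1.00 in HuBL. Bcl3 lost its call at -0.14 in BT3xHuBL and -0.06 in HuBL, and Il10 in HuBL lost its call at -0.70 (edgeR adjusted p = 0.235).

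**Figure D4:**
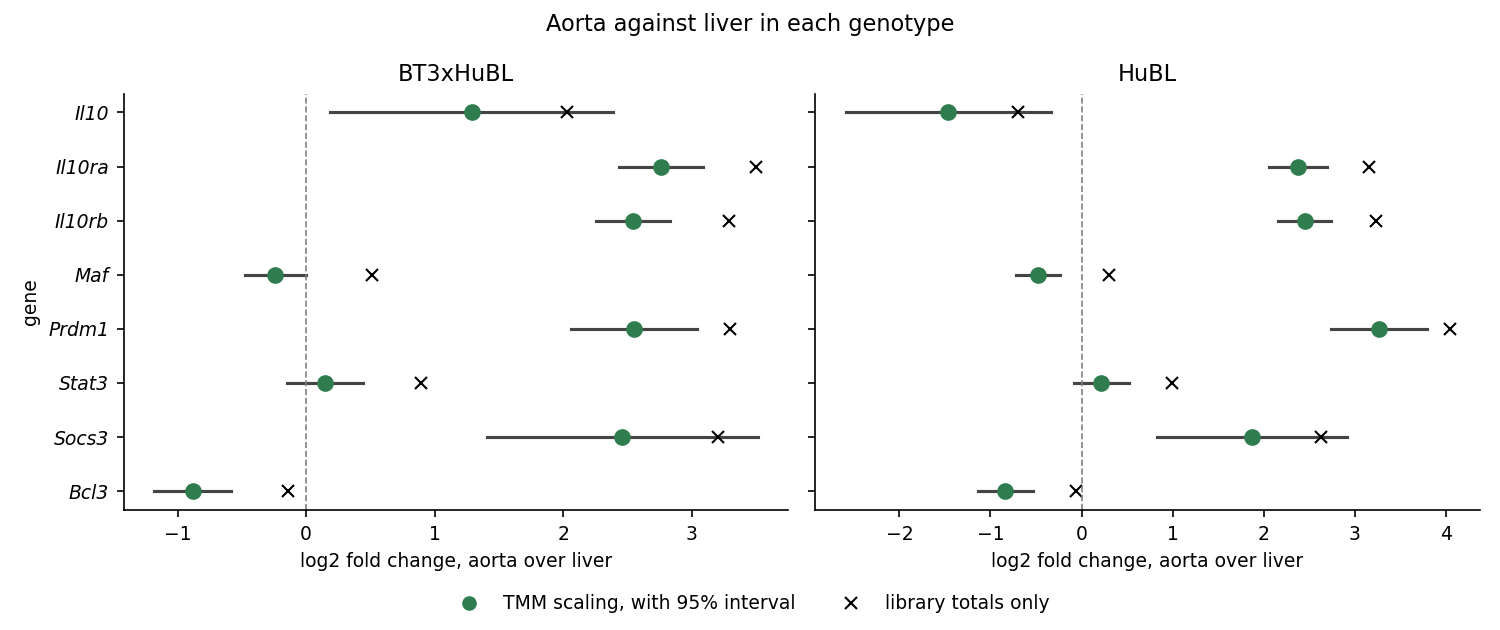
Log2 fold change of each gene, aorta over liver, in BT3xHuBL (left) and HuBL (right), from the joint fit with TMM scaling (circles, 95% intervals) and with library totals only (crosses). Il10 lies right of 0 in BT3xHuBL and left of 0 in HuBL, and every cross lies right of its circle.

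Correlations of log2 CPM among the libraries of a tissue were computed for 43 pairs of members, 28 in the aorta over 6 libraries and 15 in the liver over 8. None passed after Benjamini-Hochberg adjustment over all pairs, with a smallest adjusted permutation p of 0.632 for Pearson's r and 0.493 for Spearman's rho. Stat3 and Socs3 had a Pearson r of 0.83 in the aorta (exact permutation p = 0.0389, Spearman's rho 0.60 with p = 0.242), which was 0.01 without the 2 libraries farthest from the median of Stat3, so that it rested on those. With values centred within genotype the r of this pair over all 6 aortas was 0.93 (permutation p = 0.00972). Its adjusted p of 0.418 was the smallest of the centred values. In the liver the same pair had an r of 0.62 (exact permutation p = 0.0973) and a rho of 0.76 (p = 0.0368), and 0.72 without the 2 farthest libraries. Il10 and Socs3 in the aorta had an r of 0.71 (exact permutation p = 0.113) and a rho of 0.89 (p = 0.0333). Il10rb and Maf had an r of -0.86 in the aorta (exact permutation p = 0.0347, rho -0.60 with p = 0.242), and 0.04 without the 2 farthest libraries. Centred within genotype, the r of Il10rb and Maf was -0.90 (permutation p = 0.025, adjusted p = 0.54).

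The genes whose levels were most like those of Il10 over the 6 aortas were sought among 10677 features. These had a mean of at least 1 CPM and a plain gene symbol, so suffixed names and predicted genes were left out. The most similar genes in that set were Cenpv, Nrbp2, Pik3r6, Fam19a3 and Angptl2. Their Pearson r with Il10 ran from 0.97 to 0.99, as a description over 6 libraries that share the genotype difference. Pik3r6, a regulatory subunit of phosphoinositide 3-kinase gamma, had 9.50, 9.55 and 8.17 CPM in BT3xHuBL aortas and 6.02, 7.11 and 7.43 CPM in HuBL aortas. Angptl2, a secreted angiopoietin-like protein, had 178, 178 and 168 CPM in BT3xHuBL aortas and 156, 163 and 158 CPM in HuBL aortas. Both kept the genotypes apart, with differences far smaller in proportion than that of Il10. Because they were selected for likeness to Il10 in these same libraries, that separation is no separate result.

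Around the members, 8 lists of pathway genes were counted in each tissue, and edgeR called none of their genes in either. In the aorta the medians lay near that of all features for 7 of the 8 lists, from -0.06 to 0.04. Among genes that interleukin-10 induces in macrophages, 7 of 16 tested lay above 0 and 9 below. Nfil3, a transcription factor of that response that is itself a repressor of Il12b, had 15.5, 13.1 and 21.7 CPM in BT3xHuBL aortas and 25.5, 29.4 and 23.7 CPM in HuBL aortas. These did not overlap, and the log2 fold change was -0.64 (SE 0.18, edgeR adjusted p = 0.899). Dusp1, a phosphatase that switches off MAP kinases, averaged 88.6 ± 10.4 CPM in BT3xHuBL aortas and 106 ± 7.19 CPM in HuBL aortas (SD, n = 3 each). Cd14, the lipopolysaccharide coreceptor, averaged 88.2 ± 7.01 CPM in BT3xHuBL aortas and 72.9 ± 10.2 CPM in HuBL aortas (SD, n = 3 each). Both overlapped between genotypes.

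Of the inflammatory genes that interleukin-10 holds down, 8 of 17 tested in the aorta lay above 0 and 9 below, with a median of -0.06. Il12b, the shared subunit of interleukins 12 and 23, had 0.0873, 0.165 and 0.390 CPM in BT3xHuBL aortas and 0.714, 0.513 and 0.538 CPM in HuBL aortas. The groups did not overlap, and the log2 fold change was -1.45 (SE 0.64, edgeR adjusted p = 1.00). Cd80, a costimulatory ligand for T cells, averaged 8.91 ± 0.431 CPM in BT3xHuBL aortas and 10.8 ± 0.838 CPM in HuBL aortas (SD, n = 3 each), also without overlap. Ccl4, a chemokine of activated macrophages, averaged 8.71 ± 0.878 CPM in BT3xHuBL aortas and 6.82 ± 2.04 CPM in HuBL aortas.

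The list of genes of regulatory and type 1 regulatory T cells was the eighth, with a median of -0.22 in the aorta, where 2 of 16 lay above 0 and 14 below and none reached an unadjusted p under 0.05. Gzmb, a granule protease of cytotoxic and some regulatory T cells, averaged 0.801 ± 0.308 CPM in BT3xHuBL aortas and 0.441 ± 0.117 CPM in HuBL aortas, and Entpd1, an ectonucleotidase, averaged 229 CPM in BT3xHuBL aortas and 208 ± 8.25 CPM in HuBL aortas. These were the 2 members of the list above 0. Of 20 other regulators of Il10 transcription and decay, 6 lay above 0 and 14 below. Jun, a subunit of AP-1, averaged 139 ± 33.5 CPM in BT3xHuBL aortas and 192 ± 22.3 CPM in HuBL aortas, and Bhlhe40, a repressor of Il10 in T cells, averaged 188 ± 27.97 CPM in BT3xHuBL aortas and 160 ± 20.4 CPM in HuBL aortas (SD, n = 3 each). Both overlapped between genotypes.

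Of 18 receptor kinases, STAT factors and their inhibitors, 7 lay above 0 and 11 below in the aorta, and of 14 receptors and cytokines on other routes to STAT3, 9 lay above and 5 below. Stat5a averaged 25.2 ± 1.86 CPM in BT3xHuBL aortas and 28.6 ± 1.47 CPM in HuBL aortas without overlap (SD, n = 3 each), with a log2 fold change of -0.18 (SE 0.09). Only 3 of 9 other genes of the interleukin-10 family and its receptors were tested in the aorta, among them Il20rb, a chain of the receptors for interleukins 20 and 24, at 4.28 ± 1.31 CPM in BT3xHuBL and 2.74 ± 0.638 CPM in HuBL. The nuclear IkB and NF-kB family was split evenly, 5 above and 5 below. Nfkbia, the inhibitor IkB alpha, averaged 89.7 ± 5.31 CPM in BT3xHuBL aortas and 74.9 ± 11.5 CPM in HuBL aortas.

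In the liver the inflammatory genes that interleukin-10 holds down lay lower in BT3xHuBL than in HuBL. All 12 tested of 18 had log2 fold changes below 0, with a median of -0.78 against 0.01 over all features; 7 of the 12 had an unadjusted p under 0.05, against 11.1% of all features, and edgeR called 0. Ccl5, a chemokine of T cells, had 8.80, 11.6, 7.93 and 5.36 CPM in BT3xHuBL livers and 19.1, 20.5, 23.0 and 16.9 CPM in HuBL livers. Its groups did not overlap, and the log2 fold change was -1.24 (SE 0.20, edgeR adjusted p = 0.134). Cxcl10, an interferon-induced chemokine that attracts T cells, had 23.1, 19.2, 14.7 and 9.94 CPM in BT3xHuBL livers and 41.8, 41.8, 61.9 and 32.5 CPM in HuBL livers. It too kept the genotypes apart, with a log2 fold change of -1.41 (SE 0.28, edgeR adjusted p = 0.215). Cxcl9, a related chemokine, averaged 22.8 ± 5.51 CPM in BT3xHuBL livers and 48.0 ± 14.9 CPM in HuBL livers (SD, n = 4 each). T cell marker sums, given above, were lower in the same livers, and their part in these values was not tested. Il10 itself had 1 to 5 counts in BT3xHuBL livers and 3 to 8 counts in HuBL livers.

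Other liver lists held single genes with wide differences. Socs1, a feedback inhibitor of interferon and other cytokine receptors, had 1.03, 0.463, 1.10 and 0.654 CPM in BT3xHuBL livers and 2.02, 3.78, 6.47 and 1.46 CPM in HuBL livers. The groups did not overlap, and the log2 fold change was -2.05 (SE 0.49, edgeR adjusted p = 0.281). The list of receptor kinases, STAT factors and their inhibitors, to which Socs1 belongs, was even as a whole, 9 above and 9 below. Of 8 tested genes of regulatory and type 1 regulatory T cells, 2 lay above 0 and 6 below, with a median of -0.58. An unadjusted p under 0.05 was reached by 5 of them, against 11.1% of all features, and 1 of these 5, the ectonucleotidase Nt5e (named after its value was seen), lay above 0. Lag3, an inhibitory receptor of T cells, had 2.06, 1.98, 3.16 and 2.62 CPM in BT3xHuBL livers and 5.55, 4.32, 4.82 and 4.45 CPM in HuBL livers. These did not overlap, with a log2 fold change of -0.96 (SE 0.20, edgeR adjusted p = 0.206). The summed T cell markers were lower in the same livers, at 8.57 to 15.3 CPM in BT3xHuBL and 15.9 to 32.4 CPM in HuBL, and their part in the values of this list was not tested.

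The remaining liver lists lay closer to the median of all features. Of 14 tested interleukin-10 response genes, 6 lay above 0 and 8 below (median -0.09); Cd163, a scavenger receptor of macrophages, averaged 1.72 ± 1.05 CPM in BT3xHuBL livers and 0.856 ± 0.130 CPM in HuBL livers. Other routes to STAT3 had 6 above and 3 below (median 0.16), with Osmr, the oncostatin M receptor, at 4.79 ± 1.64 CPM in BT3xHuBL livers and 3.32 ± 0.493 CPM in HuBL livers. Other Il10 regulators had 7 above and 10 below (median -0.08), and the IkB and NF-kB family 3 above and 7 below (median -0.23). Nfkbid, the gene of smallest p in that family list, had 0.26 to 0.73 CPM in BT3xHuBL livers and 0.77 to 1.45 CPM in HuBL livers. Its groups did not overlap, and the log2 fold change was -1.25 (SE 0.39, edgeR adjusted p = 0.324). Only 2 of 9 genes of the interleukin-10 family were tested. Both Il22ra1 and Il20rb lay near 0.

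**Figure D5:**
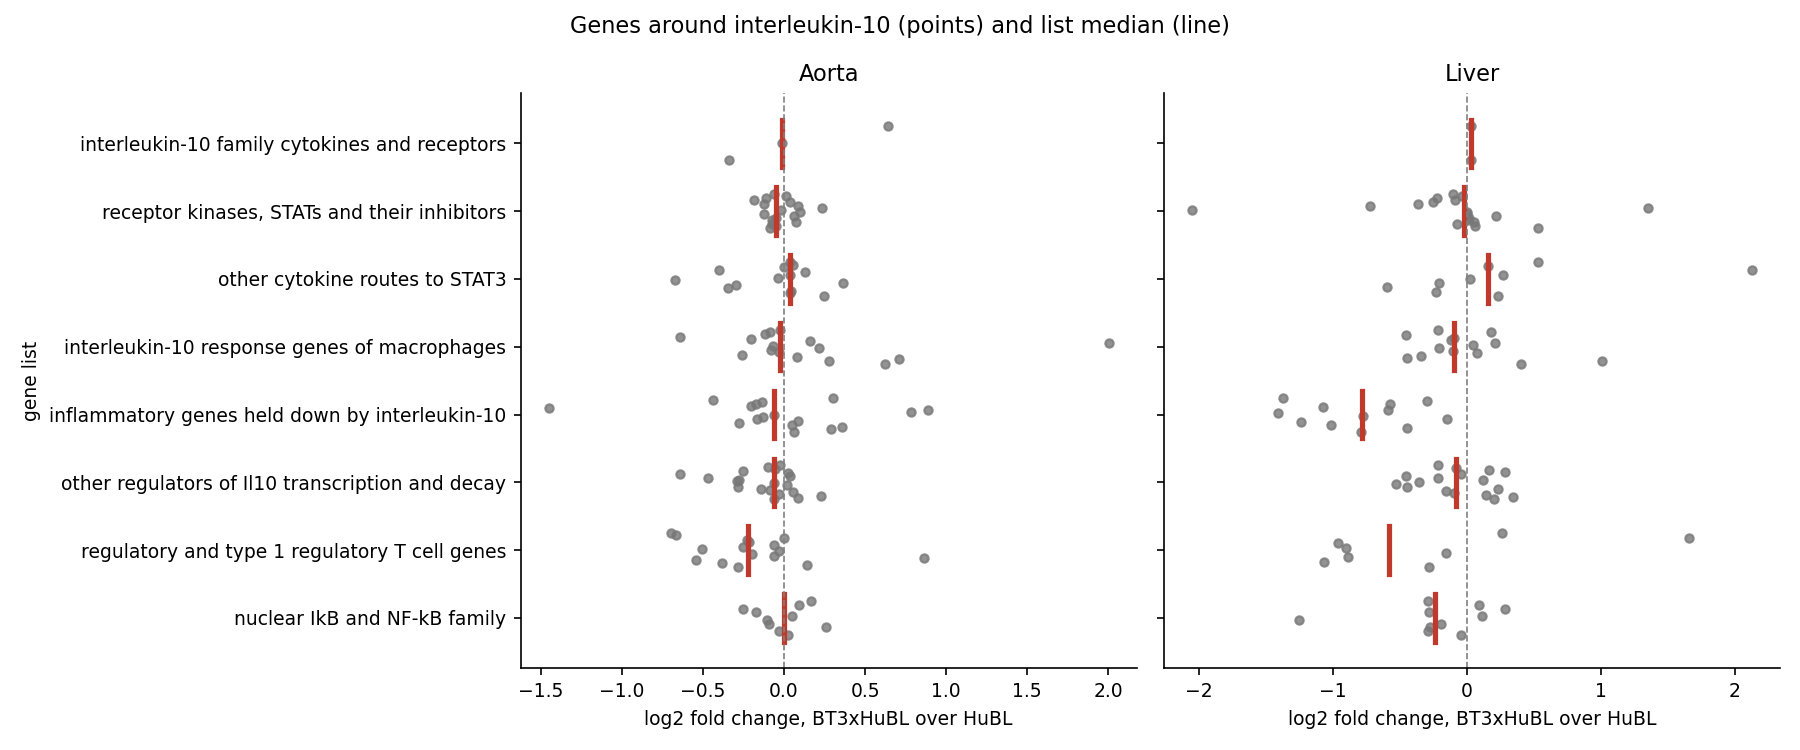
Log2 fold changes, BT3xHuBL over HuBL, of the tested genes in 8 pathway lists (points, spread vertically for legibility) and the list medians (lines), in the aorta (left) and the liver (right). In the liver all 12 points of the inflammatory list lie left of 0, with the median at -0.78; no gene shown passed after adjustment.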

How the data were processed

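RNA of 14 aorta and liver libraries was measured. Per the labels' protocols, RNA came from a Qiagen RNeasy mini preparation and libraries from Lexogen QuantSeq V2, which reads near the 3′ end, so counts are not corrected for gene length. The deposited values are counts per feature that the authors left unnormalized. Per the submitters' processing notes, HTSeq 2.0 and GRCm38 were used; for the aligner, annotation and strand setting, a statement was not given in the sources used here. Coordinates in the tables lie up to 2540 kb from GENCODE M21 for these genes and are not printed.

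Groups and numbers follow the sample titles. Each tissue was fitted in R 4.3.3 with edgeR 4.0.16 (filterByExpr with a minimum count of 10, TMM, robust quasi-likelihood F-test, two-sided, Benjamini-Hochberg over all tested features, threshold 0.05); interaction and tissue differences came from 1 fit of all 14 libraries. Fold changes use a prior count of 0.125, correlations log2 CPM with a prior count of 2. The fits were tested on simulated data. Members and lists were chosen with earlier results of these data known. All 8 members are named, and in each pathway list the up to 3 genes of smallest p were eligible; 1 gene so taken is not reported here. Alternatives were DESeq2 1.42.0, limma-voom (limma 3.58.1), other scalings and filters, a fit without robust weights, a joint fit, a replicate block and each library left out. Ratios to macrophage and to B and plasma cell markers were chosen after seeing the data. No library repeated another. Permutation tests were run in SciPy 1.17.1, and figures drawn with matplotlib 3.10.9.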

Additional observations from a re-analysis of the deposited data

Results flagged for a closer look

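Bcl3, the nuclear IkB protein, stood out in 1 group of livers. Among the 4 BT3xHuBL livers, library 4 had 27.0 CPM (26.95 before rounding to 3 digits), while the other 3 had 35.9 to 37.7 CPM, so the gap below the other libraries took up most of the range of the group. HuBL livers had 31.6 to 38.2 CPM. Of 18 such groups of 4 examined, this was the 1 found, and chance gives about 1 in 20.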

How the results depend on the processing

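None of the 8 members was called between genotypes under any alternative in either tissue or in the interaction. The number of all features called in the aorta was 4, against 68 in DESeq2, 0 in limma-voom (687 with an unadjusted p under 0.05), 9 without the low-count filter and 14 with a replicate block; leaving out single libraries gave 0 to 27, with 27 without the library labelled BT3xHuBL aorta 3, 2 without HuBL aorta 1 and 0 without HuBL aorta 2 or 3. In the liver it was 0 (1381 with an unadjusted p under 0.05), against 127 in DESeq2, 5 in the joint fit and 10 with the replicate block, and 0 to 5 over libraries left out (5 without BT3xHuBL liver 2, 2 without BT3xHuBL liver 3). In the interaction it was 0 to 3, with 3 without BT3xHuBL liver 2. The numbers in the titles gave no sign of pairing between genotypes within a tissue: correlations of deviations were -0.06 to 0.16, and 2 of 6 aortas and 3 of 8 livers correlated best with their own number. With so few libraries this cannot exclude pairing. Whether an aorta and a liver of the same number came from 1 animal was not checked, and the main joint fit treated all libraries as independent. The block lost 1 call among members, that of Il10 between tissues in BT3xHuBL (1.16, edgeR adjusted p = 0.0624). Signs turned for the values that follow. In the aorta, Stat3 ranged from -0.060 to 0.085 and Bcl3 from -0.20 to 0.056 over libraries left out. In the liver, Maf ranged from -0.036 to 0.10, Stat3 from -0.032 to 0.20, Bcl3 from -0.083 to 0.067 and Socs3 from -0.49 to 0.33, with 0.073 for Socs3 in limma-voom. In the interaction, Il10rb ranged from -0.014 to 0.22, Stat3 from -0.16 to 0.071 and Bcl3 from -0.16 to 0.098. Maf between tissues turned to 0.51 in BT3xHuBL and 0.30 in HuBL with library totals, which shift all features. Il10 per 100 T cell marker counts in the liver, BT3xHuBL minus HuBL, turned to 0.0109 without the receptor constant genes and ranged from -0.28 to 0.20 over libraries left out; in the aorta it ranged from 1.42 to 1.69. Other causes of these shifts were not tested. Of the remaining comparisons for single genes, 268 of those with another setting and 407 of those without a library kept their direction and side of the threshold. Counts of 1 to 8 limit Il10 in the liver, where a mean of at least 1 CPM would leave it untested, as it does in the aorta.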
